A study of Solanum tuberosum with 9 samples.

Results

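A set of 100 potato genes, out of 25702 genes counted, had low RNA in the same pair of stolon libraries, the nitrogen-deficiency library AN0-1 and the nitrogen-excess library AN2-3. Members were chosen from raw counts turned into CPM (the share of a library's counts times 1e6: a gene's count over the summed count of its library). In each member the lowest of the 7 other libraries was at least 5 CPM and at least 1.5 times the higher of AN0-1 and AN2-3. A group of well-known tuber genes was left out by name: patatin, the main storage protein; the protease inhibitors LOC102577642, LOC102577909, LOC102604256, LOC102577839 and PPI2C1A; the starch genes AGPS1 and GBSS; the sucrose synthase gene SS16; and the alcohol dehydrogenase gene ADH1. The low values in AN0-1 and AN2-3 are therefore how the genes were found, and they are described here without a test.

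The libraries came from stolons of the potato variety Kexin 13, in a study on how tuber formation responds to nitrogen. Plants had 1 of 3 treatments: AN0, nitrogen deficiency; AN1, conventional nitrogen; and AN2, excess nitrogen. Each treatment has 3 libraries, and the labels give no amount of nitrogen, no sampling time and no plant age. The labels do not state if replicate libraries are separate plants. The p-values below hence cover the spread among replicate libraries, part of which may be technical.

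Stolons are shoots that grow sideways underground, and their tips stop elongating and swell when a tuber forms. Swelling tips fill with starch made from imported sucrose and with storage proteins. Patatin is the main storage protein of the tuber, and it also has lipid acyl hydrolase activity. Protease inhibitors of the Kunitz and potato inhibitor types build up beside it and block digestive enzymes of insects and microbes. RNA for these proteins is low in stolons that have not begun to swell.

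Both low libraries were checked against markers of storage and of green tissue. Patatin, LOC102605260, stood at 3567, 12467 and 18044 CPM in AN0-1, AN0-2 and AN0-3, 15001, 16248 and 16647 CPM in the AN1 libraries, and 10574, 17953 and 485 CPM in AN2-1, AN2-2 and AN2-3. AN0-1 and AN2-3 lay below every other library for patatin, with AN2-3 far below AN0-1. The inhibitors LOC102604256 and PPI2C1A had the same pair of lowest libraries. The inhibitors LOC102577642 and LOC102577909 were lower in AN2-1, at 1026 and 238 CPM, than in AN0-1, at 2889 and 1107 CPM. PIN-II, LOC102577839, had its highest value in AN2-3, at 1018 CPM. The starch genes did not follow the same split. GBSS, the granule-bound starch synthase that makes amylose, was at 3789.9, 5053 and 6690.2 CPM in AN0-1, AN0-2 and AN0-3, 1983, 2722 and 3151 CPM in the AN1 libraries, and 2309, 1859 and 227 CPM in AN2-1, AN2-2 and AN2-3. AN2-3 was lowest for it, and AN0-1 was above all 3 AN1 libraries. AGPS1, a subunit of ADP-glucose pyrophosphorylase, was at 1617 CPM in AN0-1, just below the lowest other library at 1728 CPM, and at 169.9 CPM in AN2-3. SS16 and ADH1 were lowest in AN2-3, at 628 and 88.8 CPM, and in AN0-1 they lay above the lowest of the 7 other libraries. AN2-3 thus had the lowest value of all libraries for 9 of these 10 genes, while AN0-1 met the fold against the 7 others only for patatin, LOC102604256 and PPI2C1A among those also low in AN2-3.

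The library totals ran from 30952622 to 38235348 counts, with 22832 to 23745 genes detected at 1 count or more. The 10 storage and carbohydrate genes left out by name summed to 1.68% of counts in AN0-1 and 0.300% in AN2-3, and to 2.34 to 5.91% in the 7 other libraries. Green-tissue markers moved the other way. Summed over 7 genes of the photosystems, the light-harvesting antenna and the small subunit of Rubisco, AN0-1 reached 758 CPM and AN2-3 reached 690 CPM, while the rest spanned 9.58 to 85.1 CPM. Single markers differed between both: the antenna gene cab1 (LOC102596966) had 247 CPM in AN0-1 but 6.82 CPM in AN2-3. The photosystem gene PSBR was the highest marker in both, at 283 and 362 CPM. The Rubisco gene rbcS2c (LOC102600888) had only 1.29 and 1.94 CPM. All 7 markers were detected in AN0-1 and AN2-3, and 0 to 5 of them were at 0 in the other libraries. The part of this difference in marker RNA in the low values of the members was not tested. In bulk RNA, fewer cells of a type and less RNA per cell cannot be told apart.

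The members together held 1.31% of all counts in AN0-1 and 1.20% in AN2-3. In the 7 other libraries they held 4.09% ± 0.758 (SD, n = 7), from 3.10% in AN2-1 to 4.97% in AN1-1. Of the other nitrogen-deficiency libraries, AN0-2 held 3.29% and AN0-3 held 4.34%. AN1-2 and AN1-3 held 3.57% and 4.49%, and AN2-2 held 4.84%. The selection made both low libraries low, but it did not set the order of the rest, where AN0-2, AN1-2 and AN2-1 had the smallest share within their treatments. The summed share of the storage and carbohydrate genes left out by name was also lowest in AN2-1 among the 7. This did not hold for each of them: AGPS1, GBSS and SS16 were lowest in AN2-2 and PPI2C1A in AN0-2. PIN-II was lowest in AN1-2 and highest in AN2-1.

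**Figure D1:**
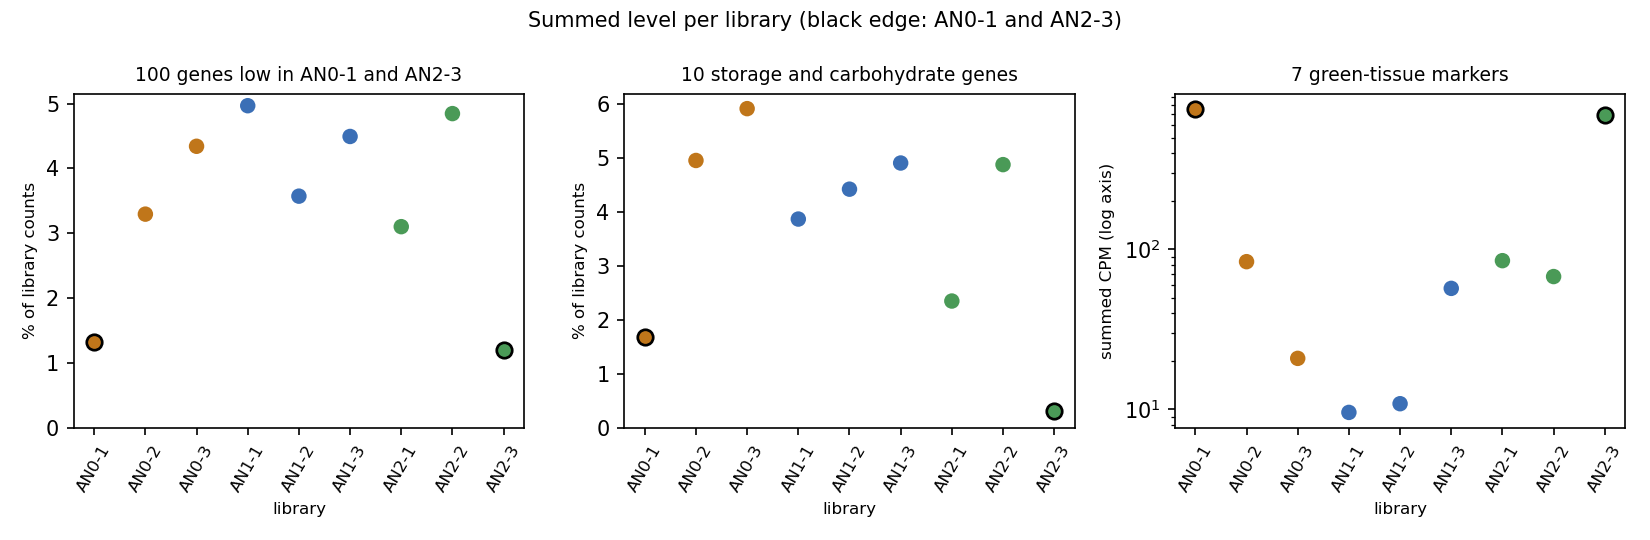
Summed level per library of the 100 members (left, % of library counts), of the 10 storage and carbohydrate genes left out by name (middle, % of library counts) and of 7 green-tissue markers (right, CPM, log axis). Each point is 1 library, colours mark the treatments and black edges mark AN0-1 and AN2-3: the members stand at 1.31 and 1.20% there against 3.10 to 4.97% elsewhere, while the green markers stand at 758 and 690 CPM against at most 85.1 CPM.

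Of the 12014 genes with at least 5 CPM in all of the 7 libraries, 103 met the fold, or 0.857%. Of the 10 genes left out by name, 3 were among these 103: patatin, LOC102604256 and PPI2C1A. By the mirrored thresholds, 269 of 13310 genes, or 2.02%, were high in both AN0-1 and AN2-3. Which pattern held more genes depends on the scale: with CPM scaled by TMM factors (a library scaling that centres the differences of most genes on 0), 202 genes were high in both and 212 genes, beside those left out by name, were low in both. At the edge of the fold, LOC102587933 was just inside, with a lowest value of 60.6 CPM in the 7 libraries and 40.3 CPM in the higher of AN0-1 and AN2-3. LOC102584780 stood at 26.5 against 17.6 CPM, and LOC102595237 at 1584 against 1052 CPM. Just outside lay LOC102587998 with 119 against 79.8 CPM, LOC102594710 with 32.4 against 21.8 CPM, and LOC102600252 with 709 against 477 CPM. At the floor, LOC102596019 was kept with a lowest value of 5.35 CPM and LOC102596519 was not, at 4.86 CPM.

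Only 5 of the 100 members have a name beyond a locus number in the RefSeq gene table, and the other 95 are known by number only, so most roles cannot be given here. The members are 99 protein-coding genes and 1 long noncoding RNA, LOC102597754, which stood at 18.1, 33.6 and 43.5 CPM in AN0-1, AN0-2 and AN0-3, 56.4, 27.8 and 44.4 CPM in the AN1 libraries, and 29.1, 61.0 and 13.4 CPM in AN2-1, AN2-2 and AN2-3. The thresholds were met by 8 of 348 named genes at the floor, or 2.30%, and by 95 of 11666 unnamed ones, or 0.814%. The 8 include the 3 storage genes left out by name.

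A pair of the named members belongs to stress protection. Lea, LOC102577657, encodes a late embryogenesis abundant protein, a kind that protects proteins and membranes from drying. Its level was 105, 229 and 455 CPM in AN0-1, AN0-2 and AN0-3, 279.9, 253 and 304 CPM in the AN1 libraries, and 659, 406 and 127 CPM in AN2-1, AN2-2 and AN2-3. Among the 7 libraries, both remaining nitrogen-excess libraries were above all 3 AN1 libraries, while AN0-2 and AN0-3 lay on either side of them. APx, LOC102586473, encodes an ascorbate peroxidase, an enzyme that removes hydrogen peroxide with ascorbate. It measured 58.7, 111 and 141 CPM in AN0-1, AN0-2 and AN0-3, 130.2, 111 and 139.9 CPM in the AN1 libraries, and 118, 135 and 69.6 CPM in AN2-1, AN2-2 and AN2-3. Its highest over lowest value across the 7 libraries was 1.27, the narrowest range of any member, and the treatments overlapped.

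LAP, LOC102595887, encodes leucine aminopeptidase, which trims amino acids from the start of proteins and peptides and is known in tomato and potato as a wound-response protein. Its level was 14.6, 46.2 and 27.4 CPM in AN0-1, AN0-2 and AN0-3, 80.1, 87.3 and 97.5 CPM in the AN1 libraries, and 112, 42.2 and 7.20 CPM in AN2-1, AN2-2 and AN2-3. LAP was highest in AN2-1, then in the AN1 libraries, and AN0-2 and AN0-3 were both below all AN1 libraries. AN2-1 was above AN2-2 for LAP, the opposite of 81 members.

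WHY1, LOC102577544, encodes a Whirly protein that binds single-stranded DNA and was first described in potato as an activator of a defence gene. It stood at 6.02, 10.2 and 10.96 CPM in AN0-1, AN0-2 and AN0-3, 10.9, 9.46 and 10.1 CPM in the AN1 libraries, and 10.4, 12.3 and 5.98 CPM in AN2-1, AN2-2 and AN2-3. AN0-1 and AN2-3 were equally low, and the 7 other libraries lay close together. WHY1 is at the weak end of the set, since its lowest value was 1.57 times the higher of AN0-1 and AN2-3. It was among several members that no longer met the thresholds after TMM scaling.

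The fifth named member, pom14 (LOC102589399), is given by name only. It measured 418, 859 and 1032 CPM in AN0-1, AN0-2 and AN0-3, 685, 669.7 and 759 CPM in the AN1 libraries, and 797, 1096 and 127 CPM in AN2-1, AN2-2 and AN2-3. AN2-3 was far below AN0-1 for this gene, and the AN1 libraries were the lowest of the remaining 7.

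**Figure D2:**
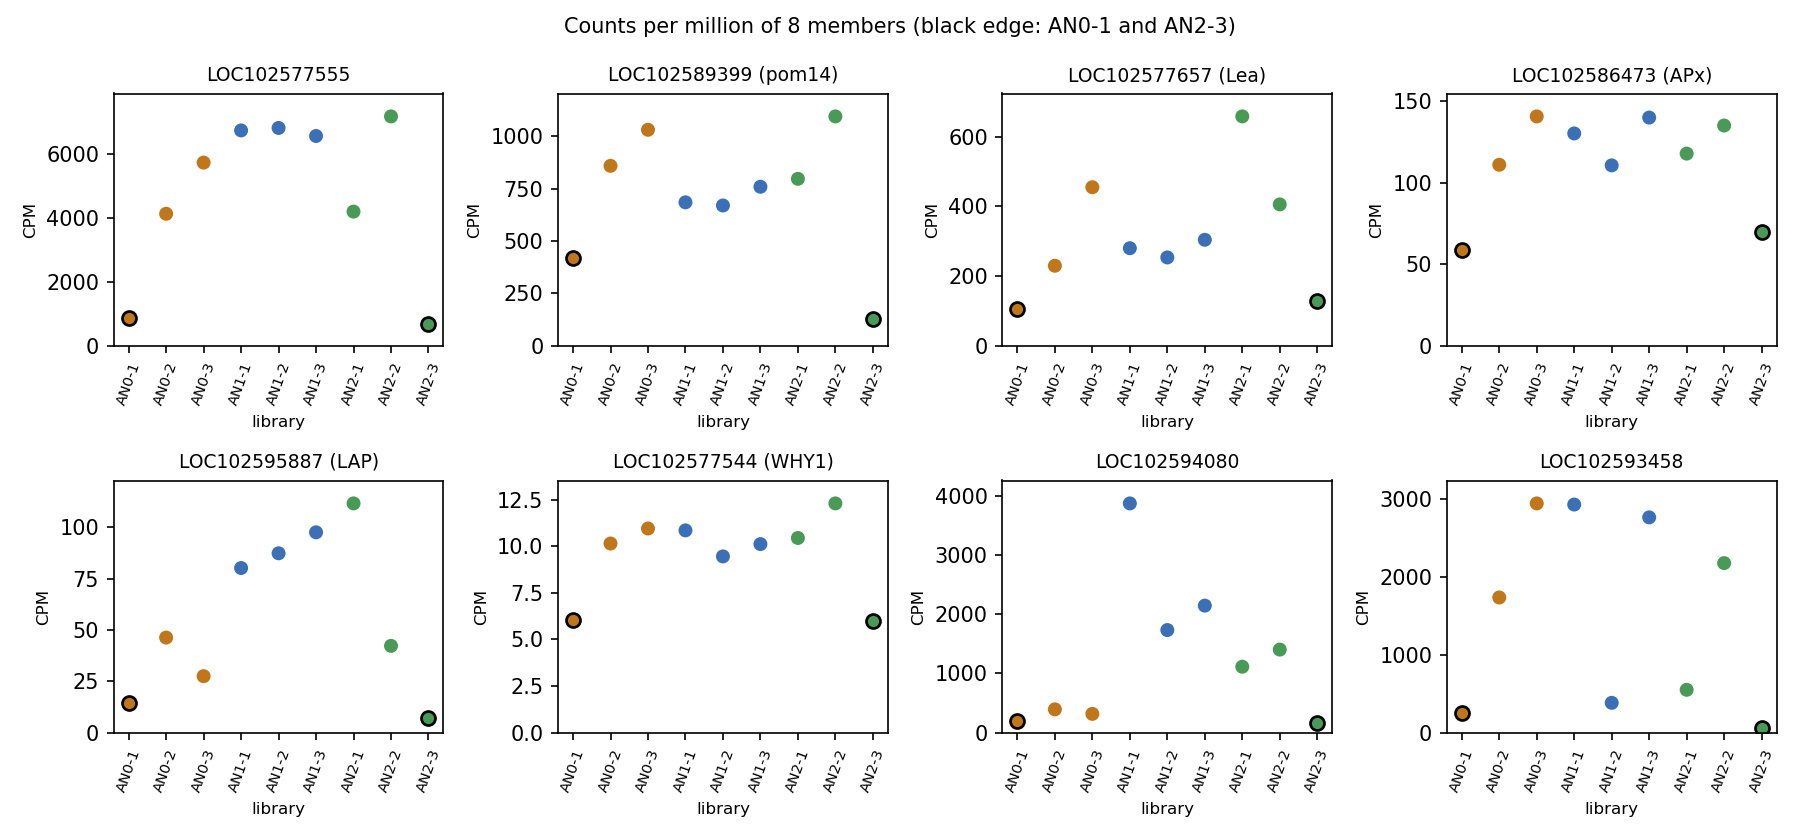
CPM of 8 members in each of the 9 libraries: LOC102577555, the 5 named members, LOC102594080 and LOC102593458. Each point is 1 library, axes start at 0, colours mark the treatments and black edges mark AN0-1 and AN2-3, the lowest points in every panel; LOC102594080 is also low in AN0-2 and AN0-3, at 392 and 315 CPM.

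Close relatives of the named members were not all low in AN0-1 and AN2-3. These lists were drawn up after the named members were seen. APX, the other ascorbate peroxidase, had 103 CPM in AN0-1 and 139 CPM in AN2-3, within the 93.8 to 146 CPM of the 7 other libraries. Of 9 genes of ascorbate, glutathione and peroxide handling at the floor, APx alone met the thresholds. DHAR, a dehydroascorbate reductase that regenerates ascorbate, missed the fold, with 372, 555 and 500.0 CPM in AN0-1, AN0-2 and AN0-3, 1092, 1265 and 912 CPM in the AN1 libraries, and 1119.7, 1134 and 399 CPM in AN2-1, AN2-2 and AN2-3. Its AN0-2 and AN0-3 values were below all AN1 libraries. WHY2, LOC102577630, the mitochondrial Whirly protein, had 20.2 CPM in AN0-1, 27.7 CPM in AN2-3, and its lowest value elsewhere was 27.5 CPM. LEA2-1, another late embryogenesis abundant gene, had its lowest value in AN0-2, at 6.39 CPM, and stood at 68.5 CPM in AN2-3.

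Of the storage and carbon lists, only that of patatin and the protease inhibitors held genes that met the thresholds, and all of these had been left out by name. They were 3 of 6 genes. Starch synthesis gave 0 of 8 genes at the floor, starch breakdown 0 of 5, sucrose use, synthesis and transport 0 of 10, and glycolysis and fermentation 0 of 7. Over all genes at the floor the share was 0.857%, and the lists are short. SBE1 (LOC102596498), a starch branching enzyme, measured 1537, 2979.9 and 2370.3 CPM in AN0-1, AN0-2 and AN0-3, 1366, 2139 and 1752 CPM in the AN1 libraries, and 1648, 1378 and 332 CPM in AN2-1, AN2-2 and AN2-3. It was lowest in AN2-3, and AN0-1 lay within the range of the AN1 libraries. Of the regulators of tuberization, 0 of 5 genes at the floor met the thresholds. BEL5, a homeobox gene whose RNA moves from leaves to stolons and promotes tuberization, and POTH15, a homeobox gene of the KNOX family, had 245 and 19.9 CPM in AN0-1, and 87.2 and 32.1 CPM in AN2-3. In the 7 other libraries they ranged from 107 to 207 and from 12.8 to 29.5 CPM. The snakin and defence list and the cell-wall list each gave 0 of 2 genes at the floor.

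The members' RNA was concentrated in a few abundant genes. Mean levels over the 7 libraries ran from 7.41 to 5896 CPM with a median of 81.0 CPM. Of the members, 13 reached 1000 CPM, 33 lay between 100 and 1000 CPM, and 54 were below. The 10 most abundant held 55.6% of the members' counts in the 7 libraries, and LOC102577555 alone held 14.4%. On the length-corrected FPKM scale (fragment counts divided by exon length and library total), the members' median level was 64.3, against 15.9 for the 11904 other genes at the floor, and 81 members were above the latter. Members also had short transcripts. Their median exon length was 1074 bases against 1779 bases, with 85 members below the latter value. Other genes expressed at or above the members' median FPKM had a median of 1099.5 bases over 1730 genes.

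LOC102577555 was the most abundant member and also had the largest ratio of the lowest of the 7 to the higher of both low libraries. It measured 852, 4119 and 5719.7 CPM in AN0-1, AN0-2 and AN0-3, 6726, 6803 and 6551 CPM in the AN1 libraries, and 4187, 7164 and 671 CPM in AN2-1, AN2-2 and AN2-3. The 7 other libraries were at least 4.84 times the higher of AN0-1 and AN2-3, and its mean over the 7 was 10878 FPKM, near the 13124 FPKM of patatin. In the RefSeq gene order it lies next to PPI2C1A, a potato inhibitor I gene that had been left out by name. PPI2C1A stood at 267, 1871 and 3023 CPM in AN0-1, AN0-2 and AN0-3, 2539, 2321 and 2872 CPM in the AN1 libraries, and 1928, 2612 and 125 CPM in AN2-1, AN2-2 and AN2-3. Both genes had the same pair of low libraries. Whether their sequences are alike was not examined. One further pair of neighbours, LOC102605264 and LOC102606043, are both members.

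The next most abundant members differed in how steady they were. LOC102595237 measured 1052, 2346 and 3641 CPM in AN0-1, AN0-2 and AN0-3, 5119, 1584 and 3491 CPM in the AN1 libraries, and 1719, 4316 and 973 CPM in AN2-1, AN2-2 and AN2-3. It varied 3.23-fold over the 7 libraries, from AN1-2 to AN1-1, and the treatments overlapped. LOC102577682, at 1199.9, 2116 and 2763 CPM in AN0-1, AN0-2 and AN0-3, 2553, 1853 and 2386 CPM in the AN1 libraries, and 1977, 2876 and 1076 CPM in AN2-1, AN2-2 and AN2-3, was steady by comparison. LOC102593458 varied widely within treatments, at 252, 1736 and 2945 CPM in AN0-1, AN0-2 and AN0-3, 2930.3, 382 and 2765 CPM in the AN1 libraries, and 549, 2178 and 53.7 CPM in AN2-1, AN2-2 and AN2-3. Its AN1-2 value was a small part of the other AN1 values, and AN2-1 was low too. LOC102595908 peaked in AN1-2 and AN2-2, with 244, 1087 and 854 CPM in AN0-1, AN0-2 and AN0-3, 1255, 3839 and 1873 CPM in the AN1 libraries, and 859, 2895 and 74.3 CPM in AN2-1, AN2-2 and AN2-3. That order differs from LOC102593458, which was lowest in AN1-2. LOC102577816 had its highest value in AN0-3, with 717, 1363 and 2757 CPM in AN0-1, AN0-2 and AN0-3, 1944, 1107 and 1857 CPM in the AN1 libraries, and 1364, 1419 and 285 CPM in AN2-1, AN2-2 and AN2-3. LOC102595943 was at 797, 1862 and 1917 CPM in AN0-1, AN0-2 and AN0-3, 1554, 1389 and 1614 CPM in the AN1 libraries, and 1500.0, 1449 and 827 CPM in AN2-1, AN2-2 and AN2-3. The nitrogen-deficiency libraries AN0-2 and AN0-3 were above all others for LOC102595943, which otherwise varied little. LOC102588879 ranged from 1258 to 1915 CPM in the 7 libraries, with 601 CPM left in AN0-1 and 749.9 CPM in AN2-3. LOC102581781 ranged from 1044 to 1438 CPM and was at 601 and 692 CPM in the low libraries. In both genes AN2-3 was above AN0-1.

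LOC102594080 is the exception among the abundant members, because it was low in all 3 nitrogen-deficiency libraries. It stood at 188, 392 and 315 CPM in AN0-1, AN0-2 and AN0-3, 3872, 1732 and 2145 CPM in the AN1 libraries, and 1112, 1402 and 161 CPM in AN2-1, AN2-2 and AN2-3. All 3 AN0 libraries were below every AN1 library, and AN2-1 and AN2-2 lay between AN0 and AN1. Its highest over lowest value within the 7 libraries was 12.3, more than in any other member.

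Most members only just met the fold. The median of the lowest of the 7 over the higher of AN0-1 and AN2-3 was 1.67, with 23 members at 2 or more and 6 at 3 or more. Beside LOC102577555 and LOC102595908, the largest were LOC102595155 (4.04), LOC102586312 (3.40), LOC102595673 (3.32) and LOC102602048 (3.31). LOC102602048 was the most abundant of these 4, at 101, 452 and 678 CPM in AN0-1, AN0-2 and AN0-3, 635, 564 and 543 CPM in the AN1 libraries, and 369.6, 432 and 112 CPM in AN2-1, AN2-2 and AN2-3. LOC102586312 measured 4.39, 32.9 and 92.7 CPM in AN0-1, AN0-2 and AN0-3, 49.0, 14.9 and 60.1 CPM in the AN1 libraries, and 19.8, 27.3 and 1.87 CPM in AN2-1, AN2-2 and AN2-3. It was highest in AN0-3 and swung 6.21-fold within the 7, while LOC102602048 stayed within 1.83-fold. LOC102595155, of low abundance, measured 2.00, 11.2 and 13.2 CPM in AN0-1, AN0-2 and AN0-3, 11.5, 8.06 and 9.44 CPM in the AN1 libraries, and 13.0, 17.6 and 0.420 CPM in AN2-1, AN2-2 and AN2-3. LOC102595673 ranged from 24.9 to 56.0 CPM in the 7 and stood at 4.58 and 7.50 CPM in AN0-1 and AN2-3.

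The depth of the drop differed between both low libraries. As a percentage of each member's mean over the 7, AN0-1 kept a median of 34.0% (9.71 to 59.8%) and AN2-3 a median of 33.5% (1.52 to 58.1%). AN2-3 had the longer tail: 10 members were under 10% there against 2 in AN0-1, and 32 against 13 were under 20%. Other genes at the floor stood at a median of 104% of their own mean in AN0-1 and 120% in AN2-3, whose TMM factor was 1.21. In 58 members AN2-3 was lower than AN0-1, against 34.7% of the other genes at the floor. After TMM scaling it was lower in 76 members, against 53.4%. AN2-3 was at most 0.5 times AN0-1 in 23 members, against 4.27% of the other genes, and at least 2 times in 3 members. The members' values here are ones the selection used, and they are a description only.

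Several members were far lower in AN2-3 than in AN0-1, and these were singled out after their values were seen. LOC102596320 ranged from 15.4 to 58.3 CPM in the 7, with 9.39 CPM left in AN0-1 and 0.388 CPM (12 counts) in AN2-3. LOC102596573 ranged from 6.94 to 11.4 CPM, with 4.47 CPM left in AN0-1 and 0.162 CPM (5 counts) in AN2-3. LOC102601036 was far more abundant and followed the same course, with 157, 792 and 881 CPM in AN0-1, AN0-2 and AN0-3, 775, 864 and 891 CPM in the AN1 libraries, and 442, 593 and 14.6 CPM in AN2-1, AN2-2 and AN2-3. At the other end, LOC102589711 kept more in AN2-3 (4.10 CPM) than in AN0-1 (1.38 CPM), with 6.20 to 27.4 CPM in the 7.

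**Figure D3:**
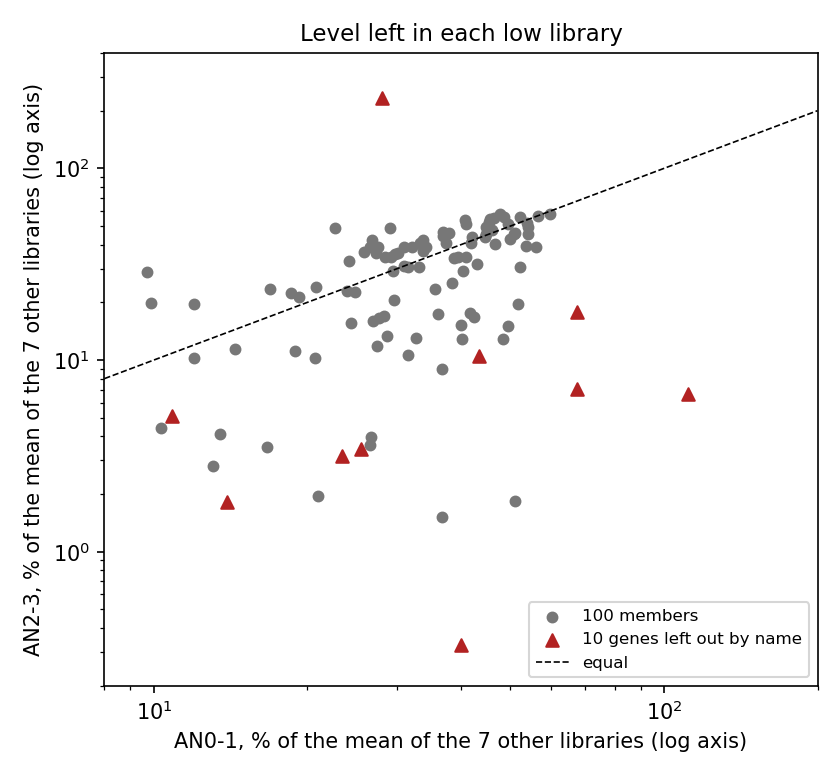
Level left in AN0-1 (x axis) and AN2-3 (y axis) as a percentage of the mean of the 7 other libraries, both axes logarithmic. Grey points are the 100 members, red triangles the 10 genes left out by name, and the dashed line marks equal values: 58 members lie below it, with 10 under 10% in AN2-3 against 2 in AN0-1, and the triangle near the top is PIN-II (LOC102577839), at 233% in AN2-3.

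Among the 7 other libraries, whose order the selection did not set, the members were set against each other. The median correlation between members (Pearson, log2 of CPM + 0.5) was 0.40 over 4950 pairs, and 79.0% of pairs were above 0. Pairs of the other genes at the floor had a median of 0.13, with 57.8% above 0. With TMM scaling the values were 0.58 and 89.7% for the members and 0.01 and 50.6% for the other genes. These values rest on the same 7 libraries and describe them only. The members shared an order within treatments. AN0-2 was below AN0-3 in 82 members, against 42.8% of the other genes at the floor. AN2-1 was below AN2-2 in 81 members, against 25.3%. AN1-2 was below AN1-1 in 89 members and below AN1-3 in 91, against 44.5% and 43.4%. Over the 7, the lowest value lay in AN1-2 for 38 members, in AN0-2 for 28, in AN2-1 for 20 and in AN0-3 for 10, and the highest in AN0-3 for 31, in AN2-2 for 29 and in AN1-1 for 22. The 4 orders within treatments held together in 60 members and in 16.8% of the other genes, or in 70 members and 25.3% after TMM scaling.

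**Figure D4:**
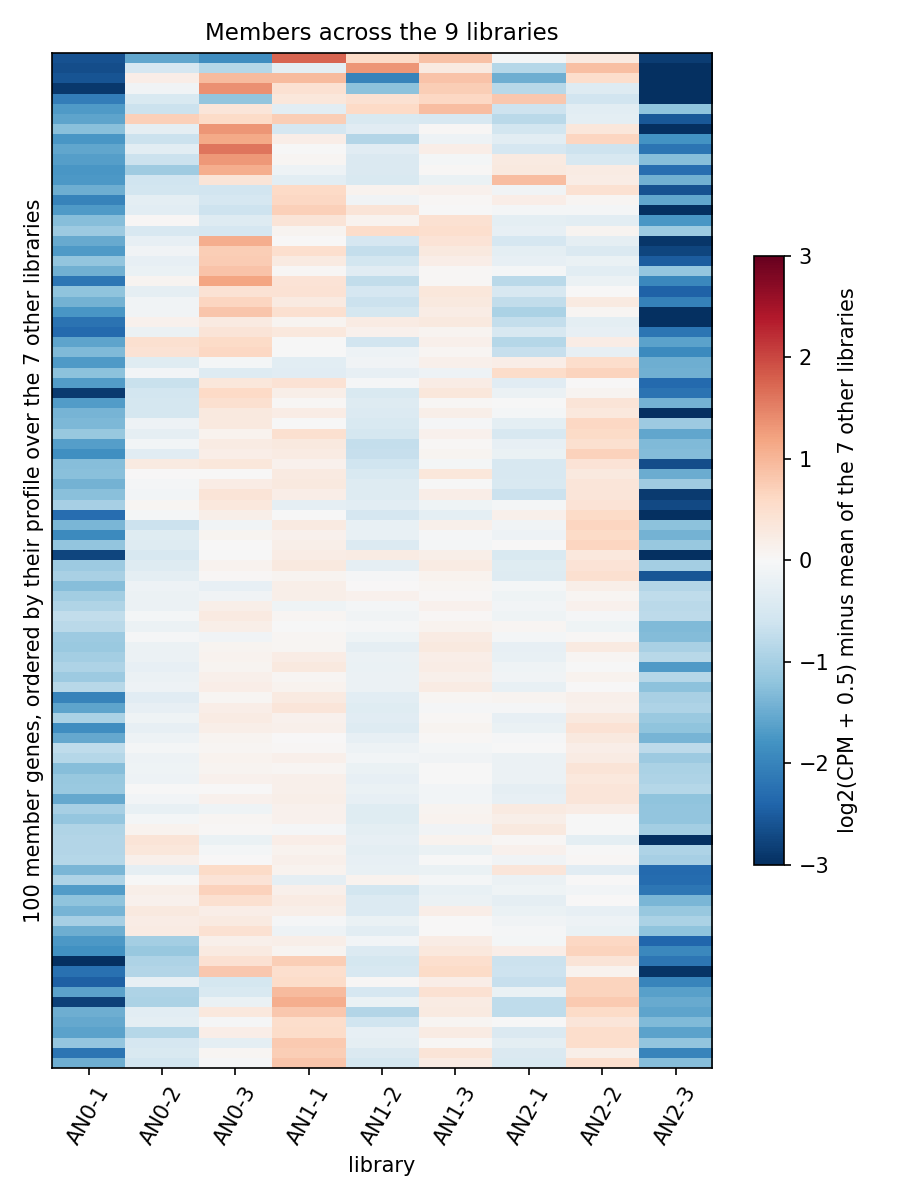
The 100 members (rows, ordered by their profile over the 7 libraries) across the 9 libraries (columns), coloured by log2(CPM + 0.5) minus the member's mean over the 7 other libraries. Blue is below that mean and red above it: AN0-1 and AN2-3 are blue in every row by selection, and AN0-2 is lower than AN0-3 in 82 rows, AN1-2 lower than AN1-1 in 89 and AN2-1 lower than AN2-2 in 81.

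The same 7 libraries were set against patatin. Correlation of the members with patatin had a median of 0.47, from -0.68 to 0.85, against -0.35 for the other genes at the floor. It was over 0.5 in 48 members against 3.19% of the other genes, and below 0 in 15 members against 75.1%. These shares depend on the scaling of the libraries, which all genes share. With TMM scaling the median was 0.66 against -0.0035, with 73 members against 14.5% over 0.5 and 5 members against 50.2% below 0. Members at both ends were picked after their values were seen. The highest values were in LOC102577555 (0.85), LOC102586448 (0.84) and LOC102599338 (0.77). The lowest were in LOC102584996 (-0.68), LOC107060850 (-0.65) and LOC102596573 (-0.60), and LAP was at -0.47. Correlation of the members with the summed green-tissue markers over the 7 had a median of -0.14, against 0.08 for the other genes. These medians were computed without TMM scaling only.

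**Figure D5:**
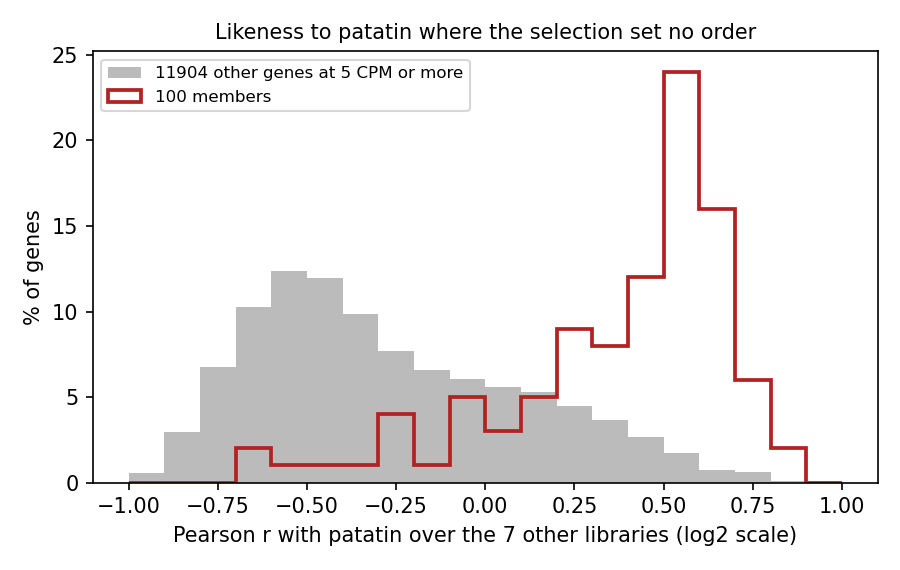
Pearson correlation with patatin over the 7 libraries other than AN0-1 and AN2-3 (x axis), on the log2(CPM + 0.5) scale, as a percentage of genes per bin (y axis). The red outline is the 100 members, with a median of 0.47, and grey bars are the 11904 other genes at 5 CPM or more, with a median of -0.35.

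The study's own comparisons are between nitrogen treatments, and the main test called no member in any of them. Members called by edgeR's quasi-likelihood test (Benjamini-Hochberg adjusted p under 0.05 over all genes tested) numbered 0 of 100 in each of the 3 comparisons of all 9 libraries. Of the 21223 genes tested, AN0 against AN1 called 0.0471%, AN2 against AN1 called 0.697%, and AN2 against AN0 called 3.65%. At an unadjusted p under 0.05, the members numbered 2, 3 and 0 in that order, against 10.8%, 13.8% and 20.4% of all genes. DESeq2 called 1 member (LOC102594080), 0 and 0, against 3.2%, 6.01% and 13.1%. These comparisons hold a low library in AN0 and in AN2 and none in AN1, so their direction is partly set by the selection, and so is the wide spread within AN0 and AN2.

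The 7 libraries without AN0-1 and AN2-3 leave 2 libraries in AN0, 3 in AN1 and 2 in AN2. There the selection sets no order, but each member had to meet the floor and the fold in all 7. Genes with a deep drop in any of the 7 were thus left out, which can limit differences between treatments. The same limit applies to the counts and spreads further below. Members called by edgeR again numbered 0 in each comparison. Of 21285 genes, AN0 against AN1 called 0%, AN2 against AN1 called 0.0705%, and AN2 against AN0 called 1.39%. The members with an unadjusted p under 0.05 were 8, 5 and 8, against 12.8%, 13.8% and 19.8% of all genes. The members' median log2 fold change was 0.07, -0.12 and -0.09 in the same order of comparisons, with medians of 0.0029, 0.016 and 0.0017 over all genes. These medians change sign when single libraries are left out. DESeq2 called 2, 0 and 3 members, against 3.75%, 4.48% and 10% of all genes.

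Counts of members whose treatment groups did not overlap in the 7 libraries are given beside the share of all 12014 genes at the floor. These counts and the spreads after them used CPM without TMM scaling only. On that scale the other genes at the floor stood at a median of 115% of their own mean in AN2-1, which can raise the share with AN2 above. AN0 was wholly above AN1 in 8 members against 14.9% of genes and wholly below in 13 against 18.8%. AN2 was wholly above AN1 in 8 members against 20% and wholly below in 9 against 7.52%. AN2 was wholly above AN0 in 12 members against 28.3% and wholly below in 15 against 12.9%. The counts with AN2 wholly below were near the share of all genes, and the other counts were under it. The share of each member's spread over the 7 that lay between treatments had a median of 26.9% (0.236 to 93.5%), against 40.9% for the other genes, and exceeded 50% in 23 members against 39.8% of the other genes.

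The members below are those that DESeq2 called in the 7 libraries, and LOC102586652, picked after their values were seen. They do not hold all of the largest differences: LOC102586312, for example, had a mean of 62.8 CPM in AN0 and 23.5 CPM in AN2 there. LOC102594080 was lower in AN0 than in AN1 by a log2 fold change of -2.82 ± 0.46 (SE), with an edgeR adjusted p of 0.109 and a DESeq2 adjusted p of 8.18e-10. For AN2 against AN0 it gave 1.70 ± 0.46, with adjusted p of 0.0998 by edgeR and 0.00207 by DESeq2. LAP gave -1.21 ± 0.35 for AN0 against AN1, with adjusted p of 0.232 by edgeR and 0.0318 by DESeq2. Without a filter on low counts, edgeR gave LOC102594080 an adjusted p of 0.0491 for AN0 against AN1, and over all alternatives it ran from 8.18e-10 to 0.438.

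LOC102598930 measured 48.8, 165 and 189 CPM in AN0-1, AN0-2 and AN0-3, 121, 109 and 126 CPM in the AN1 libraries, and 75.3, 102 and 32.0 CPM in AN2-1, AN2-2 and AN2-3. Its log2 fold change for AN2 against AN0 in the 7 libraries was -1.12 ± 0.30, with adjusted p of 0.09996 by edgeR and 0.00981 by DESeq2, and the remaining AN0 and AN2 libraries did not overlap. LOC102586012 stood at 3.71, 9.38 and 37.0 CPM in AN0-1, AN0-2 and AN0-3, 11.7, 9.21 and 13.7 CPM in the AN1 libraries, and 8.26, 7.51 and 2.20 CPM in AN2-1, AN2-2 and AN2-3. Its AN2 against AN0 value of -1.74 ± 0.57 had adjusted p of 0.153 by edgeR and 0.0267 by DESeq2, and AN0-3 stood far above AN0-2. LOC102586652 measured 11.1, 25.4 and 20.4 CPM in AN0-1, AN0-2 and AN0-3, 21.4, 22.5 and 24.3 CPM in the AN1 libraries, and 39.7, 43.4 and 9.66 CPM in AN2-1, AN2-2 and AN2-3. It had the largest share of its spread between treatments, with AN2-1 and AN2-2 above all others, but its AN2 against AN1 value of 0.78 ± 0.21 had an edgeR adjusted p of 0.180 and was called by no tool or setting tried.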

How the data were processed

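The authors deposited a table of whole-number read counts per gene and a table of FPKM values for 9 libraries. Deposited FPKM values equal count over exon length and library total, so both tables hold the same measurements, and exon lengths were taken from them. Tools named, with no roles, in the submitters' processing notes are DESeq2, fastp, HTSeq, HISAT2 and R 3.2.0. Build, annotation and strand setting are not given in those sources, so no coordinates are printed and overlapping genes cannot be told apart. Libraries were grouped by their labels. Names were looked up in RefSeq's gene table for SolTub_3.0.

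CPM used column sums. Correlations used log2(CPM + 0.5). Treatments were compared with edgeR 4.0.16 (TMM, filterByExpr, glmQLFit with robust dispersions, glmQLFTest) in R 4.3.3, over all 9 libraries and over the 7 without AN0-1 and AN2-3. All 100 members passed filterByExpr in both. The common biological coefficient of variation was 0.417 and 0.328. DESeq2 1.42.0, RLE factors, no filter, a replicate block and leaving out each library were alternatives. In simulated counts for AN0 against AN1 with 4-fold changes in 200 genes, edgeR recovered 187 with 9 libraries and 171 with 7. False calls numbered 7 and 11. The simulation gave all genes the same spread, set below both common values fitted here, and held no low libraries, unlike these data. Recovery in these data can therefore be lower, and the simulation does not give the power behind the 0 members called. Libraries hold at least 30952622 counts, so counting error matters only for genes with few counts.

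The members, lists and tests were chosen with earlier results of these data known. Members named by a fixed rule are the 5 with a name, the 10 most abundant, the 5 with the largest fold, and 3 on each side of the fold, beside the 10 genes left out. The others were chosen after their values or places were seen: the sixth largest fold, both genes at the floor, the noncoding RNA, neighbours in gene order, members nearly absent in AN2-3, those at either end of the correlation with patatin, those with the largest nitrogen differences, and listed genes that are no members.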

Additional observations from a re-analysis of the deposited data

How the results depend on the processing

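The number of members depended on the thresholds. It was 296 at the lower fold tried and 23 at a fold of 2, and 135 and 81 at floors of 1 and 10 CPM. Leaving each of the 7 libraries out of the selection gave 100 to 221 genes, the most without AN1-2 (221) and then without AN0-2 (146). Requiring a low value in AN0-1 alone gave 795 genes and in AN2-3 alone 337. TMM-scaled CPM gave 212 genes, of which 79 were among the 100. Members described above that were lost include WHY1, LOC102577682, LOC102595237, LOC102597754, LOC102596320, LOC102598930, LOC102586448, LOC102599338, LOC102605264 and LOC102606043. Members with a correlation over 0.5 to patatin numbered 48, and 73 with TMM scaling. The selections without a library or low in 1 library alone, and the TMM-scaled correlations and mirrored count, were chosen after seeing the data.

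With all 9 libraries, DESeq2 called 1 member for AN0 against AN1. With the 7 libraries it called 2 for AN0 against AN1 and 3 for AN2 against AN0; edgeR with no filter called 1 for AN0 against AN1 (LOC102594080, adjusted p = 0.0491, over alternatives 8.18e-10 to 0.438). Leaving out 1 library at a time gave 0 to 1 members for AN2 against AN0 in the 7 libraries (LOC102586012 without AN0-2, adjusted p = 0.0487) and 0 members in the other comparisons. The members' median log2 fold change among the 7 changed sign when single libraries were left out: AN0 against AN1 gave -0.20 to 0.21, AN2 against AN1 gave -0.52 to 0.20, and AN2 against AN0 gave -0.59 to 0.23. Where 1 library is left in a treatment, it is assumed to vary like the others. Over all genes, DESeq2 called 679, 1275 and 2784 with 9 libraries where edgeR called 10, 148 and 774, and 799, 954 and 2136 with 7 libraries where edgeR called 0, 15 and 296. The cause was not tested.

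The labels do not state if replicate numbers pair the libraries. Deviations from the treatment means correlated at -0.47 to 0.08 in the 9 same-numbered pairs. The highest value of any other pair was 0.50, between AN0-1 and AN2-3. Both low libraries weigh on all of these values and carry different numbers, so the values cannot decide if the libraries were paired. With the replicate block, 0 members were called in all 6 comparisons, and over all genes 0, 5 and 166 were called with 9 libraries and 0, 0 and 5 with 7. Promoter motifs and protein comparisons were not run, since no sequences were used here. Depth limits the members with few counts in AN2-3, such as LOC102596320 (12 counts) and LOC102596573 (5 counts).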
